A study of Mus musculus with 11 samples.

Results

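The genes of the major histocompatibility complex (MHC) and of antigen presentation were followed across whole kidneys of mice with Alport disease. All rows whose symbol starts with H2-, the prefix of the mouse MHC, were analysed along with B2m, Cd74, Ciita, Tap1, Tap2, Psmb8, Psmb9 and Nlrc5, which gave 45 of the 24914 rows of each library. Tapbp and Psmb10 were also sought and were not analysed here. Class I held 31 of the rows, class II held 12, and H2-Ke2 and H2-Ke6, genes of the same region that encode no MHC molecule, were counted in neither class.

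The 11 libraries were made from whole kidneys of 129X1/SvJ mice at 5.5 weeks of age. The groups were heterozygotes (Col4a3+/-) treated with PBS, called HET PBS (n = 3), knockouts (Col4a3-/-) treated with PBS, called KO PBS (n = 4), and knockouts treated with antimiR-21, which blocks the microRNA miR-21, called KO antimiR-21 (n = 4). Loss of Col4a3, a chain of the type IV collagen of the glomerular basement membrane, is a mouse model of Alport syndrome, and the HET PBS controls carry 1 disrupted allele. All groups share the strain, and the labels give neither the sex nor whether replicates came from separate animals, so p-values measure the spread between these samples.

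Class I molecules pair a heavy chain with B2m and present peptides from inside the cell to CD8 T cells, on nearly all nucleated cells. Psmb8 and Psmb9 are subunits of the immunoproteasome that cuts these peptides, Tap1 and Tap2 carry them into the endoplasmic reticulum, and Nlrc5 is the transactivator of class I genes. Class II molecules present peptides to CD4 T cells on macrophages, dendritic cells and B cells, and interferon-gamma can also bring them out on kidney tubule cells. Cd74 is the invariant chain that escorts class II molecules, H2-DM loads their peptides, H2-O restrains H2-DM, and Ciita is the class II transactivator.

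Promoters of RefSeq on GRCm38.p6 were used for 31 of the 45 rows, each from 250 bases before to 50 bases after the gene's start. The 6 below are shown because MHC promoters of both classes are known for a shared module, in which an X2 box with the core TGACG (bound by CREB family factors) stands beside a Y box, CCAAT or ATTGG on the other strand (bound by NF-Y), and on which Nlrc5 and Ciita assemble. They are written 5′ to 3′ on the gene's own strand, and capitals mark TGACG and CCAAT on either strand. H2-K1 (chr17:34000298-34000597, minus strand) and H2-D1 (chr17:35262844-35263143, plus strand) encode class I heavy chains, B2m (chr2:122147437-122147736, plus strand) the light chain and Tap1 (chr17:34187306-34187605, plus strand) a peptide transporter. H2-Aa (chr17:34287774-34288073, minus strand) and H2-Eb1 (chr17:34305617-34305916, plus strand) encode class II chains.
H2-K1: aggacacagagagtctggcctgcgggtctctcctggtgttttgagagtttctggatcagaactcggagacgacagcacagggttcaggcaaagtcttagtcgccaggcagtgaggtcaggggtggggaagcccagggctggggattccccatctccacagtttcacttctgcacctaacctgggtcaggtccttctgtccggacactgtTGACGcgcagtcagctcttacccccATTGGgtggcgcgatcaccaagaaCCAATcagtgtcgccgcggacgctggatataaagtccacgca
H2-D1: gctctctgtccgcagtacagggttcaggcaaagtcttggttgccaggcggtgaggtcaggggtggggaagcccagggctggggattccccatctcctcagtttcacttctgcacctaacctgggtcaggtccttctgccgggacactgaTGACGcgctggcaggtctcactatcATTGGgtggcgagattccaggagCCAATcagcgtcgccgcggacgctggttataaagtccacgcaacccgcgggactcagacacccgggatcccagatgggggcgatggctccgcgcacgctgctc
B2m: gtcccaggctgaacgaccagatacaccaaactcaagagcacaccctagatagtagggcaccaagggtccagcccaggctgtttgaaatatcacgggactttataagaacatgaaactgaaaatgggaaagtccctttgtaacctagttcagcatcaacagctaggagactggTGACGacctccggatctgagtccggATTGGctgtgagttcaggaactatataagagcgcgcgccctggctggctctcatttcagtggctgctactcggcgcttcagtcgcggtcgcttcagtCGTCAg
Tap1: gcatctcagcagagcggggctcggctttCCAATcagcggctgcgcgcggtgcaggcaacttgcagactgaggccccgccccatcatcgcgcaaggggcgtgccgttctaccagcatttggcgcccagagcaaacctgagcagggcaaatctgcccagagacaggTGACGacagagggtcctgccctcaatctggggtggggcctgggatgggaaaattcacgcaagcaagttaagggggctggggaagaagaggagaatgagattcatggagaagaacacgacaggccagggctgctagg
H2-Aa: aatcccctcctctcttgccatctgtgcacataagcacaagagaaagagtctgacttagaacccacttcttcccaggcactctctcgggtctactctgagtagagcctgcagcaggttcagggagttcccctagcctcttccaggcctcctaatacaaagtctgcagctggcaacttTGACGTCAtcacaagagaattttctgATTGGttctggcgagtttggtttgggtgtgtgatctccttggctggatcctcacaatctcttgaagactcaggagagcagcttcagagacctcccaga
H2-Eb1: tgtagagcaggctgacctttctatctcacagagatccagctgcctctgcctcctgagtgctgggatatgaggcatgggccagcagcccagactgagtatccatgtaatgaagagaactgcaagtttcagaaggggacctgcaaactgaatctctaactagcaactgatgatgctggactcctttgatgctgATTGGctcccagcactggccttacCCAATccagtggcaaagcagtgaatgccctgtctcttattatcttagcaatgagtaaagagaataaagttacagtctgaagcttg

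In H2-K1, H2-D1 and B2m 20 bases lie between TGACG and the ATTGG that follows it, and in H2-Aa 21. In Tap1 the CCAAT lies before the TGACG and not after it, and H2-Eb1 holds CCAAT 2 times and no TGACG. In H2-Aa the 2 matches of TGACG, 1 on each strand, overlap, and in none of the 6 do TGACG and CCAAT overlap. Over both strands TGACG was found in 20.8% of all 32851 promoters and in 13 of the 31 members (41.9%), CCAAT in 37.4% and in 27 members (87.1%), and both in 7.73% and in 13 members. TGACG with 19 to 21 bases and then ATTGG, a spacing set after these promoters were read, was found in 0.201% of all promoters and in 6 members, among them H2-M3, which presents formylated peptides, and H2-Q7. H2-K1 and H2-D1 share a run of 47 bases letter for letter, the longest they have in common, and the promoter windows of Tap1 and Psmb9, which lie head to head, share 275 of their 300 bases. The 31 members have 34 promoters, and a member was counted where any of its promoters matched, while all promoters were counted singly. A match is a run of letters and does not show binding.

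Each library held between 22.4 and 49.7 M counts as deposited, and between 17.9 and 39.7 M once rows with identical counts were joined. After joining, 3 counts, the limit that a count of 0 allows, corresponded to 0.0823 to 0.166 CPM. This is the unit used below (counts scaled by library size and TMM factors). The limit of 3 counts covers counting error alone. Kidney tubule markers summed to 14800 to 17600 CPM in every library. None of the marker genes with a row was at 0 in all 11 libraries, but some lymphocyte markers, such as Pax5 and Cd3g, were at 0 in single libraries. Col4a3 shares its reads with the neighbouring Col4a4, and the joint locus, at 870, 1050 and 1270 CPM in HET PBS, 607 to 997 in KO PBS and 515 to 809 in KO antimiR-21, therefore does not check the genotype. Ddx3y, a gene of the Y chromosome, stood at 89.7 to 109 CPM in HET PBS replicates 2 and 3, KO PBS replicates 3 and 4 and KO antimiR-21 replicate 4, and at 0.172 CPM or less in the other 6 libraries. HET PBS replicate 1, the single HET library without Y-linked reads, stood apart from the other two in most of the genes below, so the class medians, the counts of members and the pathway counts against HET PBS are also given without it. It was singled out for these values, so results without it are a description and no added support for a difference.

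Of the 45 rows, 31 passed the filter on low counts. Psmb9 and Tap1 carried the same count in every library and were tested as 1 joint locus, which left 30 loci: 18 of class I, 10 of class II and the 2 region genes. Nlrc5 was joint with 9330175E14Rik, Ciita with Dexi, H2-Oa with BC051537 and H2-Ke6 with Rxrb, and the reads of such pairs cannot be told apart, also because the library kit does not mark strand. The rows that did not pass were near silent. H2-M1, H2-M10.1, H2-M10.3, H2-M10.4, H2-M10.5 and H2-M11 had 0 counts in all 11 libraries. H2-Ea-ps, which the annotation names a polymorphic pseudogene of a class II alpha chain, had 1 count in total. H2-Eb2 had 62 counts over the 11 libraries, H2-T3 had 46.5, H2-M5 had 39, H2-Q1 had 23, H2-M10.2 had 3, H2-M9 had 1.5 and H2-M10.6 had 0.5.

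Per kilobase of exon, B2m was the most abundant member, with a mean of 495 CPM per kb in HET PBS, 473 in KO PBS and 529 in KO antimiR-21. Cd74 followed at 223, 288 and 292 CPM per kb. Then came the classical class I heavy chains, H2-D1 (108, 116 and 129 CPM per kb) and H2-K1 (85.1, 90.2 and 106). The class II chains lay below them, with H2-Eb1 at 51.4, 72.5 and 79.2, H2-Ab1 at 49.5, 62.3 and 63.9 and H2-Aa at 24.6, 36.3 and 38.2 CPM per kb. H2-T23, which encodes the class Ib molecule Qa-1, came next among class I genes with an exon length, at 27.8, 27.9 and 35.7 CPM per kb. Neighbours in this order, such as H2-D1 and H2-K1 or H2-Eb1 and H2-Ab1, lay within the spread of their libraries. The order also depends on the exon length, which merges all annotated exons of a gene. It was 3798 bases for H2-Aa and 1944 for H2-Eb1. Before division by length their HET PBS means were close, at 93.4 and 100 CPM. Most of their distance per kb therefore comes from the lengths. Near-identical copies limit some of these levels: of the 50-base stretches of its transcripts, H2-T10 shares 50.4% with other genes, H2-Q5 36.4%, H2-Q7 26.5%, H2-DMb2 25.9%, H2-T23 14.5%, H2-D1 12.8% and H2-K1 9.63%. H2-Q8 has no entry in the annotation, so its share is not given.

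**Figure D1:**
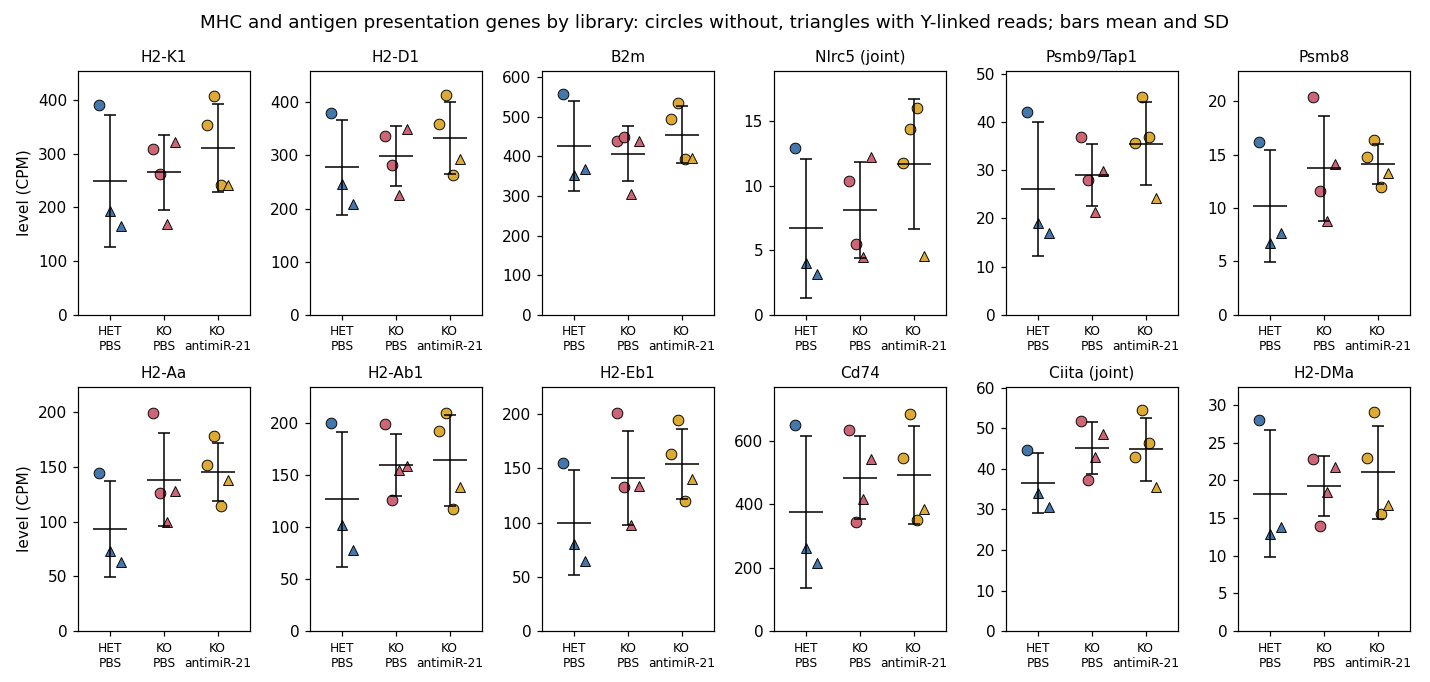
Levels in CPM (vertical axes, from 0) of 12 members in each library, by group, with the mean and SD; circles are libraries without and triangles libraries with Y-linked reads. In H2-K1 the HET PBS libraries sit at 391, 193 and 165 CPM, and the KO PBS and KO antimiR-21 libraries lie between 169 and 407.

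The effect of losing Col4a3 on these genes was read from KO PBS against HET PBS. None of the 30 tested loci passed. Class I differences lay on both sides of 0, while all 10 class II loci had positive differences. The median log2 difference of class II was 0.42, against 0.08 for class I, where 12 of 18 were positive. It was -0.02 over all 14380 loci tested, of which 46.5% were positive. Whether class I and class II differed in this comparison was not tested. By edgeR's quasi-likelihood test with Benjamini-Hochberg adjustment 0 members were called at an adjusted p under 0.05, as were 0% of all loci, and 0 had an unadjusted p under 0.05, beside 4.21% of all loci higher and 2.73% lower. The group ranges overlapped in all 30 loci, while 3.55% of all loci did not overlap and were higher and 3.21% lower. DESeq2 and limma-voom also called 0 members and had 0 higher at an unadjusted p under 0.05. That count was 1 on the authors' deposited log2 matrix (4.63% of all loci), 4 with the replicate block (5.9%), 1 without KO PBS replicate 2 (4.77%) and 1 without KO PBS replicate 3 (5.21%).

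Of the class I heavy chains, H2-K1 stood at 391, 193 and 165 CPM in HET PBS and at 309, 262, 169 and 322 CPM in KO PBS. H2-D1 stood at 379, 246 and 208 CPM in HET PBS and at 336, 282, 226 and 350 in KO PBS. B2m, the shared light chain, stood at 558, 354 and 367 CPM in HET PBS and at 438, 448, 304 and 438 in KO PBS. In all of them HET PBS replicate 1 was the highest of the 7 libraries and the ranges of the groups overlapped. The log2 differences were 0.09 (SE 0.322), 0.10 (SE 0.225) and -0.07 (SE 0.191).

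The genes that supply class I with peptides spread further. Psmb8 stood at 16.2, 6.71 and 7.67 CPM in HET PBS and at 20.4, 11.6, 8.83 and 14.1 in KO PBS, a log2 difference of 0.44 (SE 0.327). The joint Psmb9/Tap1 locus stood at 42, 19 and 17 CPM and at 36.8, 28, 21.3 and 29.8 CPM, a log2 difference of 0.16 (SE 0.315). In both, replicates 2 and 3 of HET PBS lay below every KO PBS library and replicate 1 within or above them. The joint Nlrc5 locus spread widely within HET PBS, at 12.9, 4.01 and 3.2 CPM, and stood at 10.4, 5.46, 4.49 and 12.2 CPM in KO PBS. Tap2, which with Tap1 forms the peptide transporter, had means of 32.7 ± 12 CPM (SD, n = 3) and 35.2 ± 6.79 CPM (n = 4).

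Of the class II chains, H2-Aa, the alpha chain of the I-A molecule, stood at 144, 73.1 and 62.8 CPM in HET PBS and at 199, 126, 100 and 128 CPM in KO PBS. H2-Ab1, its beta chain, stood at 200, 102 and 77.8 CPM in HET PBS and at 199, 126, 155 and 159 CPM in KO PBS. H2-Eb1, the beta chain of the I-E molecule, stood at 155, 80.3 and 64.4 CPM in HET PBS and at 201, 133, 97.7 and 134 in KO PBS. Replicates 2 and 3 of HET PBS were below all 4 KO PBS libraries in each of these genes, replicate 1 was not, and the ranges overlapped. H2-Aa had the smallest p of all members, with a log2 difference of 0.57 (SE 0.304, edgeR adjusted p = 0.766). H2-Eb1 followed among the chains at 0.50 (SE 0.315) and H2-Ab1 at 0.34 (SE 0.311).

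Cd74 stood at 650, 263 and 214 CPM in HET PBS and at 633, 343, 415 and 544 CPM in KO PBS, a log2 difference of 0.37 (SE 0.386). The joint Ciita locus stood at 44.8, 34.1 and 30.7 CPM and at 51.8, 37.2, 42.9 and 48.7 CPM, a log2 difference of 0.31 (SE 0.168, edgeR adjusted p = 0.771). H2-DMa, a chain of the peptide exchanger H2-DM, stood at 28, 12.9 and 13.8 CPM and at 22.8, 13.9, 18.5 and 21.8 CPM. Once more replicate 1 of HET PBS lay among or above the KO PBS libraries. H2-DMb1, the main H2-DM beta chain here, differed by 0.02, the smallest of the class II differences, and the joint H2-Oa locus by 0.91 (SE 0.533), the largest, at means of 0.785 and 1.49 CPM.

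Without HET PBS replicate 1 the medians were 0.54 for class I and 0.95 for class II. Of the 10 class II loci, 7 then had a higher level in KO PBS at an unadjusted p under 0.05, among them H2-Aa (log2 difference 1.03, SE 0.258), Cd74 (1.02, SE 0.308) and H2-Eb1 (0.97, SE 0.274), and so did 4 of the 18 class I loci, with Psmb8 at 0.94 (SE 0.285). The share over all loci was 7.53%. The library left out was the highest of HET PBS in 17 of 18 class I and 10 of 10 class II loci. Leaving it out therefore lowers the HET PBS means by construction. The HET PBS libraries that remain both hold Y-linked reads, while KO PBS replicates 1 and 2 do not. Again 0 members were called after adjustment, and the lowest adjusted p by edgeR was 0.254. Without KO PBS replicate 1 the class medians were -0.01 and 0.26.

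Summed levels of leukocyte markers were set beside these values. The summed level of the leukocyte list (Ptprc, Coro1a, Laptm5 and Cd52) ran from 36.5 to 56 CPM in HET PBS and from 53.2 to 97.3 CPM in KO PBS, and that of 8 macrophage and monocyte genes from 256 to 306 and from 308 to 390 CPM. The 5 dendritic cell genes with a row summed to 20.4 to 26.3 and 21.4 to 34.2 CPM, the 6 B cell genes to 1.8 to 3.43 and 1.45 to 3.65 CPM, and the 8 T and NK cell genes to 4.8 to 9.44 and 5.57 to 11.7 CPM. The joint Csf1r/Hmgxb3 locus was the largest part of each macrophage and monocyte sum, with a log2 difference of 0.04. Clec9a was the largest part of each dendritic cell sum, with 0.01. Of the tested loci, 8 of 8 in the first list (median 0.64) and 4 of 4 in the second (0.72) had positive differences. HET PBS replicate 1 was the highest HET PBS library in all of these lists, and KO PBS replicate 1 the highest KO PBS library. Without HET PBS replicate 1 the leukocyte list ran from 36.5 to 41.2 CPM in HET PBS and the macrophage and monocyte list from 256 to 274 CPM. Endothelial markers summed to 398 to 560 and 457 to 486 CPM, and podocyte markers to 171 to 229 and 235 to 328 CPM. In whole kidney, more cells of a type and more RNA per cell cannot be told apart, and the part of these cells in the class II values was not tested.

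**Figure D2:**
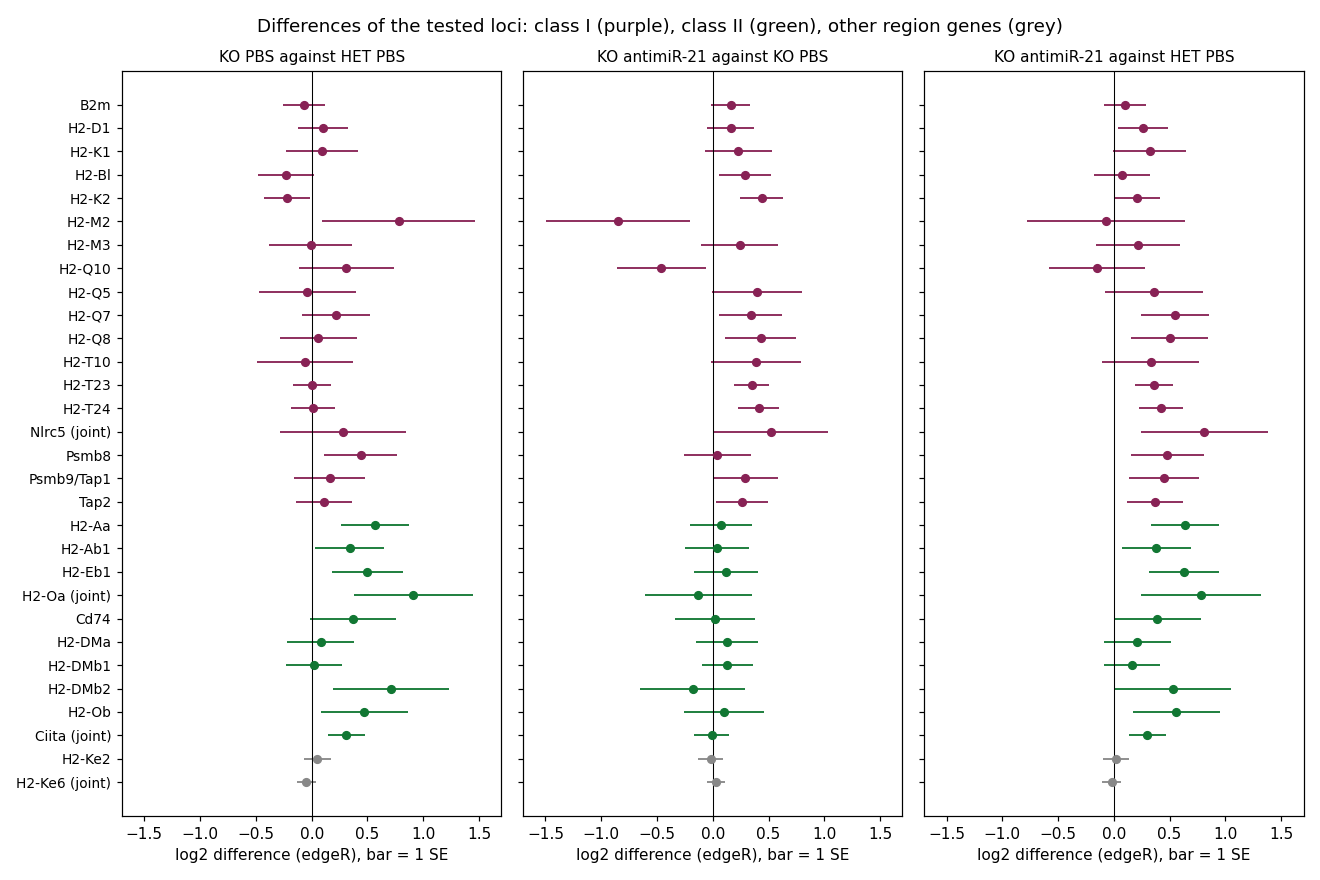
Log2 difference (horizontal axis, bars 1 SE on each side, edgeR) of the 30 tested loci in the 3 comparisons, class I in purple, class II in green and the 2 region genes in grey. In KO PBS against HET PBS the class II loci lie from 0.02 to 0.91, and in KO antimiR-21 against KO PBS from -0.18 to 0.13.

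Treatment of the knockout was read from KO antimiR-21 against KO PBS, which uses the same KO PBS libraries as before. No group was given a control oligonucleotide. Blocking miR-21 and giving an oligonucleotide can therefore not be told apart in this comparison. Here the larger differences were in class I: 16 of 18 class I loci had positive differences, with a median log2 difference of 0.29, and class II had 7 of 10 and a median of 0.06. The median over all loci was 0, with 50.9% positive. By edgeR 0 members were called after adjustment, as were 0% of all loci. At an unadjusted p under 0.05, 3 of the 30 loci were higher in KO antimiR-21, all of class I and outside the classical heavy chains, beside 4.76% of all loci, and 0 were lower, beside 3.46%. The count of 3 depended on single libraries. It was 0 without HET PBS replicate 2 (3.99% of all loci), KO PBS replicate 3 (3.49%), KO PBS replicate 4 (3.68%), KO antimiR-21 replicate 1 (2.7%) or KO antimiR-21 replicate 2 (2.25%), 1 without KO PBS replicate 2 (4.62%) and 1 with limma-voom (4.55%). DESeq2 and limma-voom called 0 members after adjustment as well.

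These 3 loci were H2-T24, H2-K2 and H2-T23. H2-T24, a class Ib gene, stood at 22.7, 22.7, 15.8 and 22.5 CPM in KO PBS and at 28.1, 26.8, 32.7 and 23.9 CPM in KO antimiR-21. Its KO antimiR-21 range lay above that of KO PBS, the single case over the 30 loci and 3 comparisons in which group ranges did not overlap, beside 2.34% of all loci that did not overlap and were higher and 1.95% that were lower. H2-K2, a transcribed pseudogene by the annotation, stood at 10.6, 10.5, 7.51 and 10.5 CPM in KO PBS and at 13.6, 17.2, 12.1 and 10 CPM in KO antimiR-21. H2-T23 stood at 86.2, 90.8, 70 and 75.2 CPM in KO PBS and at 115, 116, 89.6 and 90.3 CPM in KO antimiR-21. In H2-K2 and H2-T23 the ranges overlapped, and KO PBS replicate 3 was the lowest KO PBS library in all 3 genes. The log2 differences were 0.41 (SE 0.182), 0.44 (SE 0.192) and 0.35 (SE 0.157), with edgeR adjusted p of 0.592, 0.59 and 0.598.

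H2-K1 stood at 353, 407, 242 and 242 CPM in KO antimiR-21, beside 169 to 322 in KO PBS, a log2 difference of 0.23 (SE 0.298). H2-D1 stood at 359, 414, 264 and 294 CPM, beside 226 to 350 in KO PBS, with a difference of 0.16 (SE 0.208). B2m stood at 495, 536, 393 and 396 CPM, beside 304 to 448, with a difference of 0.16 (SE 0.177). Replicates 1 and 2 of KO antimiR-21 lay above every KO PBS library in these genes and replicates 3 and 4 among them. The Qa-2 genes of the Q region had the same layout: H2-Q7 had means of 47.2 ± 14.2 against 37.4 ± 7.83 CPM and H2-Q8 of 106 ± 32.6 against 78.6 ± 21.4 CPM (SD, n = 4 each).

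In the peptide supply genes, the joint Psmb9/Tap1 locus stood at 35.6, 45.2, 36.8 and 24.3 CPM in KO antimiR-21, beside 21.3 to 36.8 in KO PBS. Psmb8 stood at 14.8, 16.4, 12 and 13.3 CPM, within the KO PBS range of 8.83 to 20.4, and differed by 0.04 (SE 0.301). The joint Nlrc5 locus stood at 11.8, 14.4, 16 and 4.55 CPM, beside 4.49 to 12.2, a log2 difference of 0.52 (SE 0.517). Replicate 4 of KO antimiR-21, its single library with Y-linked reads, was the lowest of its group in Nlrc5 and in Psmb9/Tap1. The negative class I differences were those of H2-M2 (-0.85, SE 0.647) and of H2-Q10, which encodes a secreted class I molecule made mainly in liver (-0.46, SE 0.399).

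Class II differences were close to 0 throughout. H2-Aa stood at 152, 178, 114 and 138 CPM in KO antimiR-21 and differed by 0.07 (SE 0.278). H2-Ab1 stood at 192, 210, 117 and 139 CPM and differed by 0.04 (SE 0.286), and H2-Eb1 at 163, 195, 120 and 140 CPM and differed by 0.12 (SE 0.289). The KO PBS libraries, from 97.7 to 201 CPM over these 3 genes, covered much the same range. Cd74 stood at 545, 685, 350 and 384 CPM, with a difference of 0.02 (SE 0.355), the joint Ciita locus at 43, 54.5, 46.3 and 35.6 CPM, with -0.01 (SE 0.155), and H2-DMa at 22.9, 29, 15.5 and 16.7 CPM, with 0.13 (SE 0.279). Without KO PBS replicate 1, the highest KO PBS library in 8 of the 10 class II loci, all 10 differences were positive and their median was 0.19. Whether class I and class II differed in their response was not tested.

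Leukocyte markers summed to 61 to 83.4 CPM in KO antimiR-21, macrophage and monocyte markers to 299 to 359 CPM, dendritic cell markers to 21.2 to 34 CPM, B cell markers to 2.38 to 3.62 CPM and T and NK cell markers to 5.67 to 9.42 CPM. All of these ranges overlapped those of KO PBS, and their part in the class I values was not tested.

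KO antimiR-21 against HET PBS uses the libraries of both other comparisons and gives no independent evidence. All 10 class II loci had positive differences with a median of 0.46, and 16 of 18 class I loci with a median of 0.34, beside a median of 0 and 49.5% positive over all loci. By edgeR 0 members were called, beside 0.00695% of all loci, and 0 had an unadjusted p under 0.05, beside 5.04% of all loci higher and 3.01% lower. The ranges overlapped in all 30 loci, while 3.88% of all loci did not overlap and were higher and 2.1% lower. By DESeq2 and limma-voom 0 members were called too. Members higher at an unadjusted p under 0.05 numbered 3 with DESeq2 (5.61% of all loci), 4 with limma-voom (5.76%), 4 on the authors' deposited log2 matrix (5.83%), 6 with the replicate block (8.34%) and 1 with no filter on low counts (4.62%). They numbered 1 without KO PBS replicate 1 (5.61%), 1 without KO PBS replicate 3 (5.25%), 2 without KO antimiR-21 replicate 3 (4.88%) and 3 without KO antimiR-21 replicate 4 (8.03%). H2-T24 came nearest, with a log2 difference of 0.42 (SE 0.197, edgeR adjusted p = 0.614), and in HET PBS it stood at 25.8, 22.2 and 14.3 CPM. H2-Aa followed with 0.64 (SE 0.305), H2-T23, at 103, 76.7 and 60.7 CPM in HET PBS, with 0.36 (SE 0.171), and H2-Eb1 with 0.63 (SE 0.316).

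Without HET PBS replicate 1 the medians were 0.75 for class I and 1.04 for class II, and 12 class I and 9 class II loci were higher at an unadjusted p under 0.05, beside 10.7% of all loci. Among them were H2-Aa (1.10, SE 0.259), H2-T23 (0.58, SE 0.154), Psmb9/Tap1 (0.98, SE 0.248) and the joint Nlrc5 locus (1.69, SE 0.541). The lowest edgeR adjusted p was 0.167, so 0 members were called there too. Leaving out HET PBS replicate 1 lowers the HET PBS means by construction here as well. HET PBS replicates 2 and 3 hold Y-linked reads, while in KO antimiR-21 only replicate 4 does. Group and Y-linked status are therefore partly mixed in this fit. Among libraries with Y-linked reads (1 against 2) the medians were 0.29 for class I and 0.67 for class II, with no test.

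**Figure D3:**
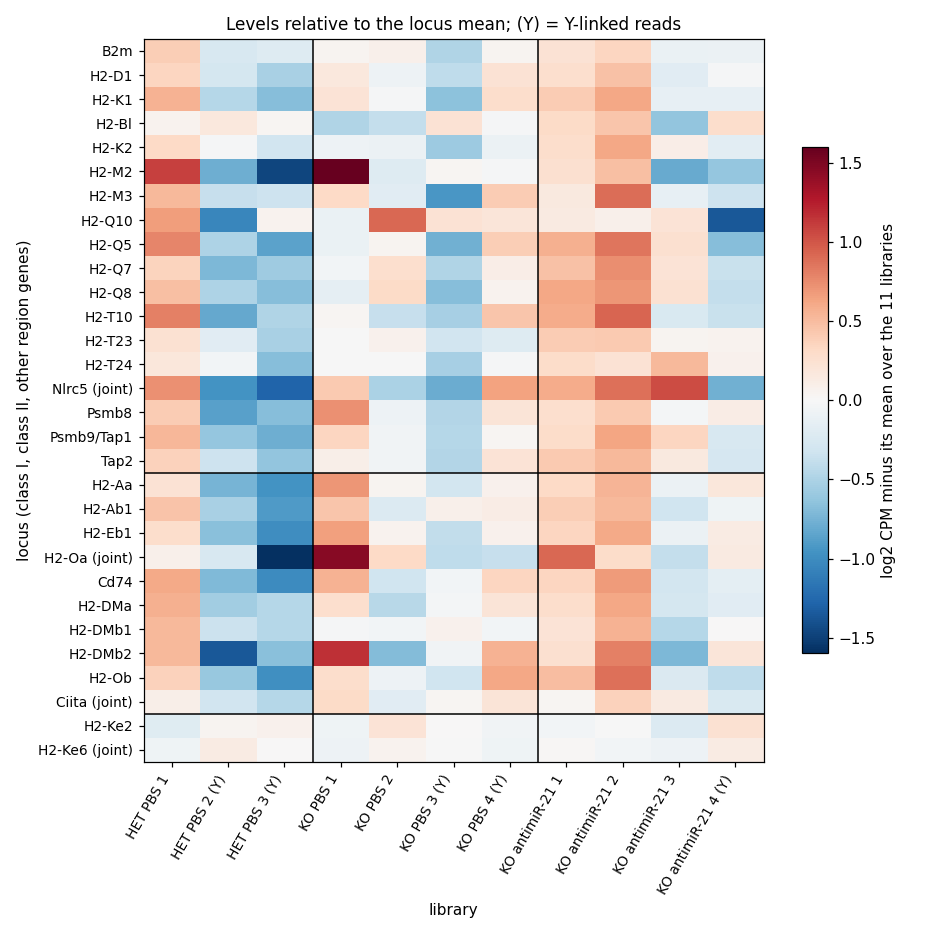
Log2 CPM minus its mean over the 11 libraries for each of the 30 tested loci (rows, class I, class II and the region genes apart) in each library (columns, with Y marking Y-linked reads). HET PBS replicate 1 is red in nearly every MHC row, and HET PBS replicates 2 and 3 are blue in most.

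Libraries of the same group differed as much as the groups did, and class I and class II genes mostly moved together between them. The median over class I loci of the log2 level, relative to each locus's mean over all libraries, was 0.44, -0.47 and -0.60 in HET PBS, 0.03, -0.05, -0.48 and 0.14 in KO PBS and 0.30, 0.57, 0.08 and -0.27 in KO antimiR-21. Over class II loci it was 0.40, -0.57 and -0.93 in HET PBS, 0.50, -0.12, -0.05 and 0.16 in KO PBS and 0.33, 0.58, -0.29 and -0.03 in KO antimiR-21. HET PBS replicate 1 was the highest library of its group in 17 of 18 class I and 10 of 10 class II loci. KO antimiR-21 replicate 2 was the highest of its group in 15 class I and 9 class II loci. KO PBS had no such library for both classes, since replicate 1 was the highest in 8 of 10 class II loci and in 5 of 18 class I loci. KO PBS replicate 3 was the lowest of its group in 15 class I and in 4 class II loci. The region genes H2-Ke2 and the joint H2-Ke6 locus stayed at means of 34.8 to 35.9 and 251 to 259 CPM over the groups.

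**Figure D4:**
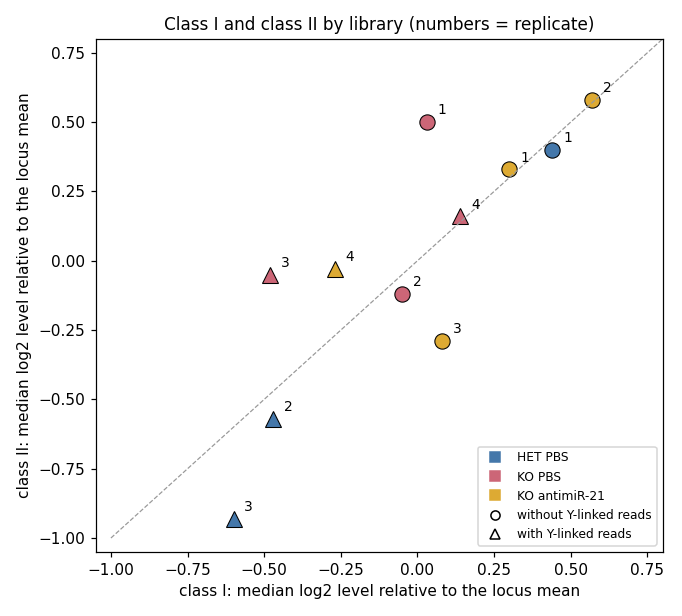
Median log2 level of the 18 class I loci (horizontal axis) against that of the 10 class II loci (vertical axis) in each library, relative to each locus's mean over the 11 libraries; the dashed line marks equal values. KO PBS replicates 1 and 3 lie above the line, at 0.50 against 0.03 and -0.05 against -0.48, and KO antimiR-21 replicate 3 below it, at -0.29 against 0.08.

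Part of this variation ran with Y-linked reads. With the groups in the same edgeR fit, 27 of the 30 loci had lower values where Y-linked reads were present (5 libraries) than where they were not (6), beside 53.6% of all loci, with medians of -0.56 over class I and -0.53 over class II. By edgeR 6 loci, all of class I, were lower at an adjusted p under 0.05, beside 6.85% of all loci, and 0 members were higher, beside 11.1%. They were the joint Psmb9/Tap1 locus (log2 difference -0.70, SE 0.156, adjusted p = 0.0096), H2-Q7 (-0.66, SE 0.163, 0.0181), H2-T23 (-0.36, SE 0.0933, 0.0195), H2-Q8 (-0.73, SE 0.183, 0.0216), H2-M2 (-1.41, SE 0.415, 0.0355) and B2m (-0.36, SE 0.115, 0.046). Within each group, Psmb9/Tap1 had a mean of 42 CPM in the HET PBS library without Y-linked reads and of 18 in those with them, of 32.4 and 25.5 in KO PBS and of 39.2 and 24.3 in KO antimiR-21. H2-Q7 stood at 48.3, 22.9 and 25.5 CPM in HET PBS, at 36.6, 45.4, 27 and 40.6 in KO PBS and at 52.4, 63.1, 44 and 29.4 in KO antimiR-21, and H2-Q8 at 115, 58.5 and 51.6, at 74.6, 102, 51.4 and 85.9 and at 127, 135, 98.1 and 63.3 CPM. KO PBS replicate 4, which has Y-linked reads, did not go with the others and stood among the KO PBS libraries without them in both genes. In class II the KO PBS means without and with Y-linked reads were close for Cd74 (488 and 479 CPM) and H2-Ab1 (163 and 157). They were further apart for H2-Aa (163 and 114) and H2-Eb1 (167 and 116). For Cd74 in HET PBS they were 650 CPM, in replicate 1 alone, and 238.

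The count of these calls depended on single libraries. It was 0 without HET PBS replicate 1 and 0 in the KO libraries alone, beside 2.46% of all loci in both, 1 without KO PBS replicate 3 (3.67% of all loci) and 1 without KO antimiR-21 replicate 4 (3.91%). It was 3 without HET PBS replicate 2 (4.86%), 11 without KO PBS replicate 2 (10.5%) and 16 without KO PBS replicate 4 (8.83%). DESeq2 called 13 members (8.91%) and limma-voom 7 (6.57%). In each of these fits 27 of the 30 loci stayed negative. Class II loci that passed numbered 2 with DESeq2, 3 without KO PBS replicate 2, 1 without KO PBS replicate 4 and 2 without KO antimiR-21 replicate 3, where 8 members passed in all (6.61% of all loci). With edgeR and all 11 libraries no class II locus passed, and H2-Eb1 came nearest at -0.58 (SE 0.195, edgeR adjusted p = 0.0692). H2-Bl had the opposite sign (0.28, SE 0.192), as had H2-Ke2 (0.13) and the joint H2-Ke6 locus (0.08). In the same fit, by edgeR with all 11 libraries, 6.85% of all loci were lower with Y-linked reads at an adjusted p under 0.05. So were 1 of 4 leukocyte, 1 of 8 macrophage and monocyte, 1 of 7 T and NK cell and 3 of 3 podocyte markers. The medians of these lists were -0.46, -0.40, -0.53 and -0.43. Of the other lists, 0 of 4 dendritic cell, 0 of 2 B cell, 0 of 5 endothelial and 0 of 5 tubule markers were lower at this limit. The part of all these markers in the MHC values was not tested.

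The groups hold different shares of such libraries, so the comparisons were also read within them. KO PBS against HET PBS had class medians of 0.37 for class I and 0.70 for class II among libraries with Y-linked reads (2 against 2), where all 10 class II loci were positive, and of -0.36 and -0.26 among those without (2 against 1, the 1 being HET PBS replicate 1). KO antimiR-21 against KO PBS had medians of 0.31 and 0.10 without Y-linked reads (3 against 2) and of -0.06 and -0.12 with them (1 against 2). KO antimiR-21 against HET PBS had -0.13 and -0.12 without (3 against 1) and 0.29 and 0.67 with them (1 against 2). These have no test. With Y-linked status as a covariate the medians were 0.05 and 0.43 for KO PBS against HET PBS, 0.09 and -0.09 for KO antimiR-21 against KO PBS and 0.17 and 0.31 for KO antimiR-21 against HET PBS, and 0 members were called in each. Beside these stood 0.0209%, 0% and 0.0139% of all loci. At an unadjusted p under 0.05 in these fits, 2 members were higher and 2 lower in KO antimiR-21 against KO PBS, beside 6.23% and 4.85% of all loci. There were 0 in KO PBS against HET PBS, beside 5.23% higher and 4.55% lower, and 0 in KO antimiR-21 against HET PBS, beside 3.76% and 2.56%.

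The joint loci that hold the transactivators were set against genes of both classes. Their counts cannot be told from those of 9330175E14Rik and Dexi, so the share of the transactivators in these relations is not known. Nlrc5 and Ciita stand for these joint loci from here on. Libraries were permuted over all groups together. The p-values of these relations therefore do not part differences between groups from variation within them. Across the 11 libraries the joint Nlrc5 locus varied with Psmb9/Tap1, with Pearson's r = 0.933 (permutation p = 5e-05, adjusted 0.0003) and Spearman's rho = 0.916 (permutation p = 0.00022, adjusted 0.00132) on log2 CPM, over 6 relations computed. Without the 2 libraries farthest from the median of Nlrc5, HET PBS replicates 2 and 3, r was 0.883 (permutation p = 0.00162), and among the 6 libraries without Y-linked reads it was 0.84 (exact permutation p = 0.0444). The joint Ciita locus and Cd74 had r = 0.877 (permutation p = 0.00049, adjusted 0.00147) and rho = 0.818 (0.00302, adjusted 0.00906), and r = 0.765 (permutation p = 0.0202) without HET PBS replicate 3 and KO antimiR-21 replicate 2. Among the 6 libraries without Y-linked reads this relation had r = 0.682 (exact permutation p = 0.144) and rho = 0.714, so it did not pass at this number of libraries. No correlation was computed over the 5 libraries with Y-linked reads.

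The relations across classes had r = 0.769 for Nlrc5 and Cd74 (permutation p = 0.007, adjusted 0.0084, rho = 0.655) and r = 0.716 for Ciita and H2-K1 (permutation p = 0.0149, adjusted 0.0149, rho = 0.743). These fell to 0.557 (permutation p = 0.124) and 0.491 (permutation p = 0.18) without the 2 farthest libraries. As tests they rest on those samples, whose removal also narrows the range of the joint locus. Among the libraries without Y-linked reads they had r = 0.407 (exact permutation p = 0.468) and r = 0.45 (exact permutation p = 0.385). Nlrc5 and H2-K1 had r = 0.826 (permutation p = 0.00332, adjusted 0.00517, rho = 0.761), 0.71 (permutation p = 0.0337) without the 2, and 0.343 (exact permutation p = 0.574) among the libraries without Y-linked reads. Ciita and H2-Aa had r = 0.79 (permutation p = 0.00345, adjusted 0.00517, rho = 0.736), 0.603 (permutation p = 0.0819) without the 2 and 0.689 (exact permutation p = 0.118) among the libraries without Y-linked reads.

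The chains of class II were set against each other as ratios, chosen after their values were seen and given with no test. H2-Eb1 over H2-Aa was nearly constant, between 0.974 and 1.10 in all 11 libraries. H2-Ab1 over H2-Aa, the 2 chains of 1 molecule, varied more, at 1.39, 1.39 and 1.24 in HET PBS, 0.998, 1, 1.54 and 1.24 in KO PBS and 1.26, 1.18, 1.03 and 1.01 in KO antimiR-21. H2-DMb2 over H2-DMb1, the 2 beta chain genes of H2-DM, was 0.363 in KO PBS replicate 1 and between 0.0794 and 0.242 in the others.

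**Figure D5:**
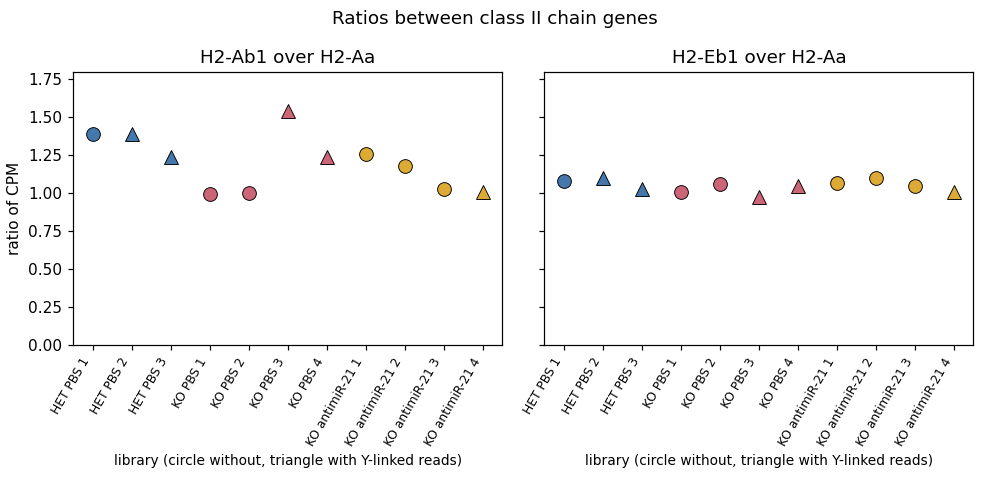
Ratio of CPM (vertical axes, from 0) of H2-Ab1 over H2-Aa and of H2-Eb1 over H2-Aa in each library (horizontal axes), circles without and triangles with Y-linked reads. H2-Eb1 over H2-Aa stays between 0.974 and 1.10, and H2-Ab1 over H2-Aa runs from 0.998 to 1.54.

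Of the other genes of the pathway, 31 loci were tested, and 0 were called in the 3 comparisons by edgeR after adjustment. They include chaperones, proteases of the class II route, costimulators and interferon signalling genes. In KO PBS against HET PBS 22 had positive differences (median 0.08), beside 46.5% of all loci, and 1 was higher at an unadjusted p under 0.05, beside 4.21%. This was Ctss, the cathepsin that trims the invariant chain, at 13.9, 8.43 and 8.4 CPM in HET PBS and 32.4, 18.1, 12 and 15.6 CPM in KO PBS, with a log2 difference of 0.93 (SE 0.302, edgeR adjusted p = 0.546). In KO antimiR-21 Ctss stood at 23.5, 24.2, 20.1 and 24.1 CPM, above every HET PBS library, with a log2 difference of 1.17 against HET PBS. Without HET PBS replicate 1 the Ctss differences were 1.21 (SE 0.327) and 1.45 (SE 0.33). In KO antimiR-21 against KO PBS 17 of 31 were positive (median 0), beside 50.9% of all loci, and Fcgrt, the neonatal Fc receptor (0.23), and Cd83, which steadies class II on the cell surface (0.57), were higher at an unadjusted p under 0.05, beside 4.76%. In KO antimiR-21 against HET PBS 21 of 31 were positive (median 0.07), beside 49.5%, and 3 were higher at an unadjusted p under 0.05, beside 5.04%, the same 3 whose ranges lay apart, beside 3.88%. They were Ctss, Cd83 (log2 difference 0.93, SE 0.286, at 3.13, 2.28 and 1.71 CPM in HET PBS and 5.41, 5.22, 3.8 and 3.59 in KO antimiR-21) and the joint locus of Rfxank, a subunit of the RFX complex of MHC promoters, and Nr2c2ap (0.21, SE 0.0817). Without HET PBS replicate 1, 22 and 20 of the 31 were positive in the comparisons of KO PBS and KO antimiR-21 with HET PBS. Beside these stood 48.1% and 50.8% of all loci. At an unadjusted p under 0.05, 4 and 6 were higher, beside 7.53% and 10.7% of all loci. Lower at this limit were 0 and 1, the 1 being Calr in KO antimiR-21 (-0.33, SE 0.112). The share of all loci that were lower in these fits is not given here. Irf1, a transcription factor of class I genes under interferon, stood at 31.9, 18.5 and 13.6 CPM in HET PBS, at 33.4, 22.5, 20.4 and 26.3 in KO PBS and at 24.7, 34.5, 32.8 and 24.9 in KO antimiR-21, with replicate 1 again the highest of HET PBS.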

How the data were processed

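Messenger RNA of 11 whole-kidney libraries was analysed from the files the authors deposited, which hold estimated counts per gene in steps of 0.5 and not normalized, per the file headers. Of those above 0, 47.4% were not whole. Per the submitters' processing notes the build was mm10, and HTSeq 0.5.4p5, STAR, SAMtools, FastQC and limma were used in roles not given in the sources used here, nor is the annotation. A deposited matrix of log2 values differed from log2 CPM (0.5 added) by a constant per library and was used as an alternative.

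Rows with identical counts in every library (total at least 50) were joined, which turned 24914 rows into 23401 loci, 1513 of them joint. Counts were rounded, filtered with filterByExpr (14380 loci, 1502 of them joint) and scaled by TMM (factors 0.917 to 1.08), and the 3 comparisons were tested two-sided by edgeR 4.0.16 in R 4.3.3 with 3 groups in 1 fit, adjusted by Benjamini-Hochberg over all loci at 0.05. The biological coefficient of variation was 0.215. The fit was tested on simulated data, where for KO PBS against HET PBS 56% of 200 loci changed by 1 on the log2 scale and 96.5% of those changed by 2 were recovered (14127 and 14106 loci run). Every simulated locus was given this same coefficient of variation. The shares therefore do not hold for single members, whose SE in this comparison differed, such as 0.386 in Cd74 and 0.17 in H2-T23.

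Values in every library are given for the main class I and class II genes and for members with an unadjusted p under 0.05 or non-overlapping ranges, and the rest by range and count. Class medians are descriptions. Alternatives were DESeq2 1.42.0 with its own size factors, limma-voom (limma 3.58.1), no filter, rows as deposited, a fit of the 2 groups compared alone, the deposited log2 matrix, a replicate block, Y-linked status (Ddx3y above 5 CPM) as a covariate and each library left out. The comparison by Y-linked status and its alternatives were added after seeing the data. The members and lists were chosen with earlier results of these data known. Gene positions and exon lengths are from GENCODE vM21.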

Additional observations from a re-analysis of the deposited data

Results flagged for a closer look

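Among 60 groups of 4 libraries (30 loci in KO PBS and in KO antimiR-21), 5 held a library far from the other 3 by Dixon's 95% criterion on the gap to the nearest of the others. Chance flags about 1 in 20 groups.

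KO PBS replicate 3 was the lowest of its group in 3 of these. B2m stood at 304 CPM there and at 438 to 448 CPM in the other KO PBS libraries. H2-K2 stood at 7.51 CPM there and at 10.5 to 10.6 CPM in the others. H2-T24 stood at 15.8 CPM there and at 22.5 to 22.7 CPM in the others, and it is the member whose KO PBS and KO antimiR-21 ranges do not overlap. H2-M2 stood at 4.06 CPM in KO PBS replicate 1 and at 0.852 to 1.01 CPM in the others. H2-Q10 stood at 0.83 CPM in KO antimiR-21 replicate 4 and at 2.24 to 2.48 CPM in the others.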

How the results depend on the processing

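Under every alternative run 0 members were called in the 3 comparisons, so the count of 0 did not depend on the tool, the filter, the joining or a single library. With libraries left out one at a time, the class medians for KO PBS against HET PBS ran from -0.13 to 0.54 for class I and from 0.22 to 0.95 for class II. For KO antimiR-21 against KO PBS they ran from 0.14 to 0.39 for class I and from -0.12 to 0.19 for class II, and the class I median was 0.09 with Y-linked status as a covariate. For KO antimiR-21 against HET PBS they ran from 0.11 to 0.75 for class I and from 0.24 to 1.04 for class II, the highest values against HET PBS each coming without HET PBS replicate 1. In the same fits the log2 differences of 18, 15 and 8 of the 30 loci changed sign in the 3 comparisons, in this order, and 8, 7 and 1 of them belong to the 15 loci chosen for values in every library. Of those 15, for KO PBS against HET PBS these were B2m (-0.17 to 0.17), H2-DMa (-0.11 to 0.53), H2-K1 (-0.13 to 0.57), H2-T23 (-0.15 to 0.23), Psmb9/Tap1 (-0.06 to 0.68), Nlrc5 (-0.04 to 1.17), H2-D1 (-0.06 to 0.40) and H2-T24 (-0.19 to 0.19), as lowest to highest. For KO antimiR-21 against KO PBS these were Ciita (-0.13 to 0.07), Cd74 (-0.20 to 0.18), H2-Ab1 (-0.11 to 0.17), H2-DMa (-0.08 to 0.25), Psmb8 (-0.13 to 0.29), H2-Aa (-0.06 to 0.30) and H2-Eb1 (-0.02 to 0.34), as lowest to highest. For KO antimiR-21 against HET PBS this was B2m (-0.03 to 0.34), as lowest to highest. With Y-linked status as a covariate 2, 7 and 2 of the 30 loci changed sign. Of the same 15, H2-T23 and H2-T24 turned to -0.04 each for KO PBS against HET PBS, B2m to -0.03 for KO antimiR-21 against HET PBS, and Cd74 to -0.16, H2-Aa to -0.03, H2-Ab1 to -0.09, Psmb8 to -0.08 and H2-DMa to 0 (just below it) for KO antimiR-21 against KO PBS. The cause was not tested. 

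The count of 6 members lower with Y-linked reads became 13 with DESeq2, 7 with limma-voom, 0 in the KO libraries alone and 0 to 16 with a library left out. Replicate numbers did not pair the samples: over 10 pairs of the same number the correlation of deviations ran from -0.444 to 0.629, and 3 of 11 libraries correlated best with their own number. With the replicate block 0 members were called and the medians were 0.12 and 0.52, 0.30 and 0.05, and 0.41 and 0.58 for class I and class II in the order above. At this depth the members with under 100 counts in total could not be compared, and groups of 3 and 4 limit what an adjusted p can show for differences below 1 on the log2 scale.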
